A study of Homo sapiens with 18 samples.

Results

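The comparison described here is 3D culture at timepoint 3 against 3D culture at timepoint 2, the last interval of a time course of MCF10A cells. MCF10A is an established, non-malignant human breast epithelial line. Its members were the 3 libraries of 3D timepoint 3 and the 3 libraries of 3D timepoint 2, chosen by their sample titles and paired by replicate number, 6 of the 18 libraries of the series. In both groups cells were plated sparsely on compliant polyacrylamide gels carrying Matrigel, a laminin-rich basement membrane extract, at 50 µg/ml, in medium with 5% horse serum, 20 ng/ml EGF, insulin, cholera toxin and hydrocortisone. Unattached cells were removed at 1 h, and growth medium with 2% Matrigel was then added over the attached cells. 2D cultures on the same gels received fresh medium in place of medium with Matrigel. The protocol lists harvests at 3, 12 and 21 h after plating, which match timepoints 1, 2 and 3 only by their order, so the interval is 12 to 21 h by that reading. Each library was poly-A-selected RNA read as 50 bp single ends, and the labels do not say whether libraries came from separate cultures, so the spread behind the tests, estimated over the 17 fitted libraries of all groups, may be technical.

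Epithelial cells enclosed by basement membrane on a soft support receive integrin signals from all sides and build less contractile actin than cells spread on a rigid surface. Contractility is set by myosin light chains, tropomyosins, filamins and the kinases that act on myosin, and the serum response factor couples actin polymerisation to transcription of many of those genes. Freshly plated cells also re-enter the cell cycle, and mitotic genes are transcribed last, shortly before division.

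Library totals in the deposited file headers were 11.4 M to 13.9 M reads at timepoint 3 and 10.5 M to 16.9 M at timepoint 2, and the gene counts summed to between 5.29 and 5.73 times those totals, so the deposited counts exceed the reads. CPM, the count as a share of the library total after TMM scaling, is used to compare libraries for 1 gene or for the sum over 1 list, and levels of different genes or lists are not compared. All 9 basal mammary epithelial markers on a list of 9 passed the filter, with a summed level of 5590 to 8250 CPM at timepoint 3 and 6720 to 8600 CPM at timepoint 2. Basal keratin KRT5 stood at 2766, 4363 and 5217 CPM at timepoint 3 and at 3799, 3878 and 4310 CPM at timepoint 2. Endothelial markers summed to 2.06 to 2.96 CPM at timepoint 3 and 2.23 to 2.86 CPM at timepoint 2, with CDH5, the endothelial cadherin, at 0 in 2 of 3 libraries of timepoint 3 and in all 3 of timepoint 2. Of 10 fibroblast markers 6 passed the filter, and DCN, which encodes the matrix proteoglycan decorin, held 152 to 257 CPM at timepoint 3 and 114 to 205 CPM at timepoint 2. DCN was higher in all 3 pairs (log2 fold change 0.37, SE 0.19) and the collagen gene COL1A1 lower in all 3 (-0.52, SE 0.28), and of the 6 fibroblast markers 3 were above 0 and 3 below. The part of these markers in the results below was not tested.

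No gene passed the threshold in the comparison of 3D timepoint 3 with 3D timepoint 2. Of 18592 genes tested with edgeR's quasi-likelihood test and the replicate number as a block, 0 (0%) had a Benjamini-Hochberg adjusted p under 0.05, and the smallest adjusted p was 0.0551. At an unadjusted p under 0.05 there were 850 genes with higher values (4.57%) and 1069 with lower values (5.75%) at timepoint 3. DESeq2 on the same libraries called 257 genes (1.38%), 97 higher (0.522%) and 160 lower (0.861%), and limma-voom called 3 (0.0161%), all lower. The authors' deposited log2 CPM values, tested with limma, gave 12 of 13677 genes (0.0877%), 2 higher (0.0146%) and 10 lower (0.0731%). When length and GC content of each gene entered as an offset, edgeR called 27 (0.145%), 7 higher (0.0377%) and 20 lower (0.108%). Without the offset, the log2 fold changes of 18398 genes had a Spearman correlation of -0.317 with GC content and 0.132 with length. Fold changes thus varied with base composition, and some values below differ under the offset. The preceding interval, 3D timepoint 2 against timepoint 1, gave 5279 calls (28.4%) in the same fit. The late interval in 2D gave 7 (0.0377%), with 2 libraries at 2D timepoint 3. The test of the difference between the late change in 3D and that in 2D called 0 genes (0%) with edgeR, and 41 of 18592 with DESeq2. With edgeR 1399 had an unadjusted p under 0.05, 716 (3.85%) with the 3D change above the 2D change and 683 (3.67%) below it. The 41 include log2 values too extreme to read as folds, OSCAR at -28.0, BMPER at -29.5, ACSBG2 at 36.0 and HEATR9 at 38.7. Each of these had an edgeR adjusted p of 0.65. Statements on single genes below are therefore values, not calls, unless a test is named.

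The members of the G2-M and mitosis list held higher values at timepoint 3 with few exceptions. All 34 listed genes were measured, and 34 had a log2 fold change above 0, against 49.3% of all genes tested. Of these, 33 were higher in all 3 replicate pairs (19.5% of all genes), 12 had every timepoint 3 library above every timepoint 2 library (4.16% of all genes), and 23 had an unadjusted p under 0.05 (4.57% of all genes). None passed edgeR's adjusted threshold, 7 passed with DESeq2 (0.522% of all genes), and the list was chosen with earlier results of these data known. The median log2 fold change was 0.72, with pair medians of 0.66, 0.92 and 0.66, against -0.01 over all genes. It lay between 0.56 and 0.93 when single libraries or replicate numbers were left out. The single member without 1 direction in the pairs was CKS2, a cyclin-dependent kinase regulatory subunit, at 0.07 on the log2 scale.

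CCNB1, cyclin B1, the activating partner of the mitotic kinase CDK1, stood at 232, 161 and 313 CPM at timepoint 3, against 141.5, 71.2 and 149 CPM at timepoint 2. Every timepoint 3 library lay above every timepoint 2 library, although the lowest of timepoint 3 and the highest of timepoint 2 were close. The log2 fold change was 0.98 (SE 0.23), with an adjusted p of 0.152 from edgeR and 0.00694 from DESeq2. PRC1, which bundles the microtubules of the central spindle, stood at 142, 136 and 184 CPM at timepoint 3, against 80.1, 67.2 and 108 CPM at timepoint 2. Its groups did not overlap either, at a log2 fold change of 0.86 (SE 0.21, edgeR adjusted p = 0.155, DESeq2 0.00811). CDC20, the activator of the anaphase-promoting complex, stood at 122, 119.8 and 190.0 CPM at timepoint 3, against 86.0, 61.2 and 103 CPM at timepoint 2. BIRC5, survivin, a subunit of the chromosomal passenger complex, came nearest to the threshold among the list's members. It stood at 121, 118 and 180.2 CPM at timepoint 3, against 82.0, 70.7 and 115 CPM at timepoint 2 (log2 fold change 0.65, SE 0.11, edgeR adjusted p = 0.0713). Replicate 2 was the lowest library of timepoint 2 for CCNB1, PRC1, CDC20 and BIRC5, and replicate 3 the highest library of both groups.

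**Figure D1:**
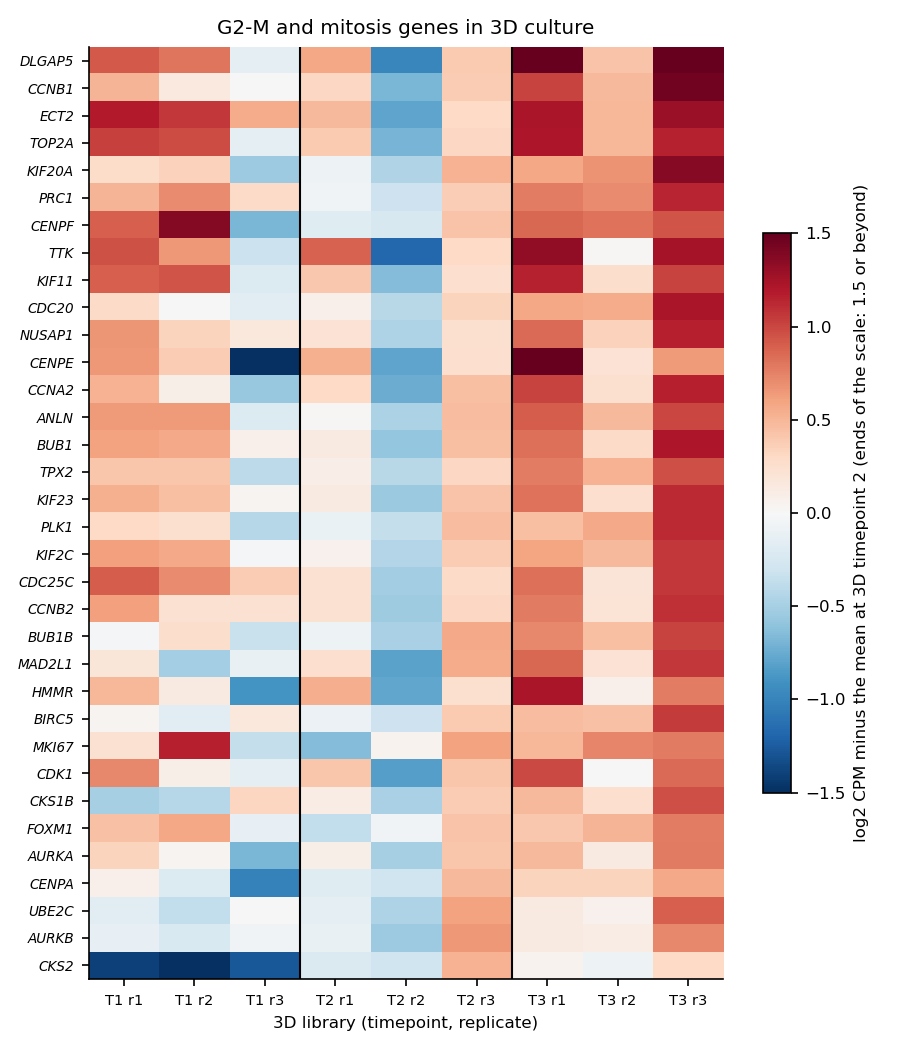
Heat map of the 34 G2-M and mitosis genes (rows, ordered by log2 fold change) in the 9 libraries of 3D culture (columns, timepoint and replicate); colour is log2 CPM minus the gene's mean over the 3 libraries of timepoint 2, with 1.5 or beyond at the ends of the scale. Timepoint 3 columns are red for nearly every gene, replicate 2 of timepoint 2 is the bluest column of its group, and CKS2 in the bottom row is low at timepoint 1.

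In 2D, the same list had a median log2 fold change of 0.40 in the fit, and 27 of its 34 members were above 0 (48.1% of all genes). The difference between the late change in 3D and that in 2D had an unadjusted p under 0.05 for 2 members, both with the larger change in 3D (3.85% of all genes), so a change particular to 3D culture was not shown. The 2D library left out of the fits, replicate 1 of timepoint 3, gave a pair median of 1.19 for this list, against 0.41 and 0.38 in the 2D pairs of replicates 2 and 3.

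Promoter sequence is shown for 4 members of this list because many mitotic genes carry a TTTGAA element and CCAAT boxes near the start. The 4 were taken by smallest p from members with TTTGAA in the stretch printed, so all hold it by choice. BIRC5 and CCNB1 are not among them. PRC1 has a single CCAAT in the stretch printed, and in CDC20 CCAAT lies on both sides of TTTGAA. Sequences are from RefSeq, build GRCh38.p14, and cover the 110 bases before the annotated start, read 5′ to 3′ on the gene's strand. Capitals mark TTTGAA and CCAAT on the printed strand. The intervals are chr15:90994536-90994645 on the minus strand for PRC1, chr1:43358871-43358980 on the plus strand for CDC20, chr1:154974571-154974680 on the plus strand for CKS1B, a second regulatory subunit of the cyclin-dependent kinases, and chr15:59105036-59105145 on the plus strand for CCNB2, cyclin B2.
PRC1: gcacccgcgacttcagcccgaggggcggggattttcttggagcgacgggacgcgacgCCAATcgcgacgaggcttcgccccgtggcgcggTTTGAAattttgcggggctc
CDC20: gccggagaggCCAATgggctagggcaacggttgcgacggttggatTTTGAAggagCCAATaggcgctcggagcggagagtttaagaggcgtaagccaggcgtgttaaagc
CKS1B: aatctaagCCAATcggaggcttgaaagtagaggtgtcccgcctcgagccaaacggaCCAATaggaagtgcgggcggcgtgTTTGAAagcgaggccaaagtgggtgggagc
CCNB2: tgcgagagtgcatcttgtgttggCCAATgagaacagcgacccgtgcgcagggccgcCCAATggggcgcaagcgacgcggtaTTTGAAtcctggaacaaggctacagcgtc
Windows of 250 bases before to 50 bases after the start were matched for 28 of the 34 genes and searched on both strands for TTTGAA and CCAAT, which do not overlap each other. TTTGAA occurred in 24 of 34 windows (70.6%) of 21 genes, against 15.2% of all 35116 promoter windows and 2 of 35 windows (5.71%) of the G1-S list. CCAAT occurred in 79.4% of the G2-M windows, 65.7% of the G1-S windows and 34.6% of all windows. A match of these letters is a description of the sequence and does not show a bound site.

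Replication genes and ribosome biogenesis genes also held higher values at timepoint 3, by less. In the G1-S and DNA replication list 31 of 33 genes were above 0 (49.3% of all genes) and 23 were higher in all 3 pairs (19.5%). Of the 33, 15 had an unadjusted p under 0.05 (4.57% of all genes). The list's median log2 fold change was 0.29 in 3D and 0.32 in 2D. The members with the smallest p were MCM7 and MCM3, subunits of the replicative helicase. MCM7 stood at 282, 322 and 494 CPM at timepoint 3, against 246.5, 199 and 334 CPM at timepoint 2 (log2 fold change 0.48, SE 0.11, edgeR adjusted p = 0.147). The groups overlapped because replicate 3 was high in both, while each pair moved the same way. In the list of MYC and ribosome biogenesis genes 29 of 30 members were above 0 and 21 were higher in all 3 pairs (19.5% of all genes). This list had 14 members with an unadjusted p under 0.05 (4.57% of all genes). Its median was 0.23 in 3D (0.36 without replicate 1) and 0.24 in 2D. NCL, nucleolin, stood at 906, 787 and 1294 CPM at timepoint 3, against 809.5, 595 and 755 CPM at timepoint 2 (log2 fold change 0.45, SE 0.13, edgeR adjusted p = 0.279). MYC itself was at 606, 710.1 and 682 CPM at timepoint 3, against 557, 586 and 631 CPM at timepoint 2, a log2 fold change of 0.17 (SE 0.12).

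Genes for the ribosome's own proteins had lower values at timepoint 3. Of 40 cytosolic ribosomal protein genes, 39 were below 0 (50.7% of all genes) and 38 were lower in all 3 pairs (20.4% of all genes). Their median log2 fold change was -0.38, with pair medians of -0.18, -0.43 and -0.52. The median was -0.22 without replicate 3 of timepoint 3 and -0.20 without replicate 2 of timepoint 2. None had an unadjusted p under 0.05, and 8 had groups that did not overlap (6.34% of all genes). RPS3, a protein of the small subunit, stood at 9646, 12600 and 10470 CPM at timepoint 3, against 11130, 18260 and 17200 CPM at timepoint 2. Replicate 1 of timepoint 2 lay below the highest library of timepoint 3, and the log2 fold change was -0.47 with an SE of 0.31 (edgeR adjusted p = 0.601). RPL7 was the exception, at 0.35, with 2.44 to 4.18 CPM over the 6 libraries. Many ribosomal protein genes have near-identical pseudogenes, and how shared reads were counted is not stated. The 10 genes with most counts took 9.77% to 11.2% of each timepoint 3 library and 11.1% to 13.1% of each timepoint 2 library, and the part of that difference in this result was not tested. In the preceding interval, which shares the timepoint 2 libraries, the list's median was 1.12, and in 2D the late median was 0.12.

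Nuclear genes for oxidative phosphorylation had 28 of 32 members below 0 and 21 lower in all 3 pairs, with a median of -0.22 (-0.14 without replicate 3 of timepoint 3 or replicate 2 of timepoint 2) and no member at an unadjusted p under 0.05. COX6C, a subunit of cytochrome c oxidase, stood at 567, 495 and 536 CPM at timepoint 3, against 657, 585 and 788 CPM at timepoint 2. The 13 genes encoded in the mitochondrion gave no common direction, with pair medians of 0.71, -0.33 and -0.53. Mitochondrial counts made up 0.533%, 0.429% and 0.398% of the timepoint 3 libraries and 0.364%, 0.457% and 0.482% of the timepoint 2 libraries, so pair 1 went against pairs 2 and 3 in both measures, and the list's median of -0.11 ranged from -0.47 without replicate 1 of timepoint 2 up to 0.18 without replicate 3 of timepoint 2.

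Actin and actomyosin genes were lower at timepoint 3 in most cases. Of 31 measured members of 32, 25 were below 0, 20 were lower in all 3 pairs and 9 had an unadjusted p under 0.05 (5.75% of all genes), and the median was -0.20 (pair medians -0.41, -0.15 and -0.09; -0.12 without replicate 1). DESeq2 called 3 members, all lower (0.861% of all genes). MYL9, the regulatory light chain of smooth muscle and non-muscle myosin (chr20:36541519-36551447, hg38), stood at 3.91, 4.01 and 6.19 CPM at timepoint 3, against 12.0, 8.92 and 14.8 CPM at timepoint 2. All timepoint 3 libraries lay below all timepoint 2 libraries, and at timepoint 1 MYL9 had been at 4.80, 3.31 and 9.39 CPM. The log2 fold change was -1.35 (SE 0.19), with an adjusted p of 0.0551 from edgeR, 4.3e-07 from DESeq2 and 0.579 without the replicate block. The late fold change of MYL9 in 2D was -1.25. TAGLN, transgelin, an actin-bundling protein, followed at 18.3, 25.5 and 46.9 CPM at timepoint 3, against 49.2, 48.1 and 77.5 CPM at timepoint 2 (log2 fold change -1.04, SE 0.24, edgeR adjusted p = 0.147). Its highest timepoint 3 library, replicate 3, was just below the lowest of timepoint 2.

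The cytoplasmic actins and filamin A were lower in value by smaller amounts. ACTG1, gamma actin, stood at 6217, 7925 and 7865 CPM at timepoint 3, against 12230, 12210 and 10020 CPM at timepoint 2, without overlap (log2 fold change -0.66, SE 0.21, edgeR adjusted p = 0.302). ACTB, beta actin, had a log2 fold change of -0.47 (SE 0.17), again without overlap, and an edgeR adjusted p of 0.356. FLNA, filamin A, which crosslinks actin into networks, stood at 1341, 1907 and 1289 CPM at timepoint 3, against 1799, 2571 and 1636 CPM at timepoint 2. The groups overlapped because replicate 2 was highest in both, and the log2 fold change was -0.40 (SE 0.13, edgeR adjusted p = 0.315). MYH9, the heavy chain of non-muscle myosin, was at -0.16 (SE 0.10). In 2D the late change of FLNA was -0.09, and the difference between the cultures, with an edgeR adjusted p of 0.664, was not shown.

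Promoter stretches of 3 members of the actin list are shown because they hold a CArG box, the element read by serum response factor. They are 80 bases each from RefSeq (GRCh38.p14), all on minus strands, with the CArG box in capitals, at chr17:81512850-81512929 for ACTG1, chrX:154374685-154374764 for FLNA and chr2:11345488-11345567 for ROCK2, which encodes a kinase acting on the myosin light chain.
ACTG1: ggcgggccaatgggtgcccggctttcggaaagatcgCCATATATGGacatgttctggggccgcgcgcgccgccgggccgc
FLNA: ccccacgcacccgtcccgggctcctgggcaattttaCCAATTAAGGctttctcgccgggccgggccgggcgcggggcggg
ROCK2: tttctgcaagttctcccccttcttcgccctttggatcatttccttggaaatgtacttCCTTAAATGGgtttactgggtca
A CArG box on either strand occurred in 11 of 47 windows (23.4%) of 9 of the 28 matched actin genes, against 1.29% of all windows and 0 of the G2-M windows. A letter match shows neither binding nor a role in these values, and ROCK2 was higher in value at timepoint 3, at a log2 fold change of 0.50 (SE 0.29).

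Matrix-remodelling genes held lower values at timepoint 3, with wide spread between replicates. Of 18 measured proteases and inhibitors of the matrix 16 were below 0 (50.7% of all genes) and 9 were lower in all 3 pairs (20.4%). Of the 18, 6 had an unadjusted p under 0.05 (5.75% of all genes), and the list's median was -0.29. That median was -0.50 without replicate 1 and -0.19 without replicate 3 of timepoint 3. PLAUR, the urokinase receptor, stood at 20.9, 19.4 and 22.4 CPM at timepoint 3, against 29.3, 28.3 and 30.6 CPM at timepoint 2, and its groups lay well apart (log2 fold change -0.50, SE 0.14, edgeR adjusted p = 0.258). PLAU, urokinase itself, was at 7.46, 7.95 and 5.78 CPM at timepoint 3, against 10.9, 13.9 and 8.99 CPM at timepoint 2, also without overlap. ADAM19, a membrane metalloprotease, was at 1.43, 1.20 and 0.752 CPM at timepoint 3, against 3.11, 4.88 and 1.61 CPM at timepoint 2. Each ADAM19 pair was lower, without overlap.

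TGM2, transglutaminase 2, which crosslinks matrix proteins, had the largest fold of the crosslinking and matricellular list. It stood at 19.7, 11.3 and 3.71 CPM at timepoint 3, against 100.5, 64.2 and 13.8 CPM at timepoint 2. The groups overlapped, since replicate 3 was low at both times, but each pair was lower at timepoint 3 (log2 fold change -2.32, SE 0.43, edgeR adjusted p = 0.0837). At timepoint 1 TGM2 had been at 12.9, 23.9 and 15.0 CPM. Of the list's 21 measured members, 19 were below 0 in the fit, yet 5 were lower in all 3 pairs (20.4% of all genes). The pair medians were 0.30, -0.48 and -0.42. The list's median of -0.23 was -0.45 without replicate 1 and -0.07 without replicate 2. Laminins and hemidesmosome genes split in the same way, at 0.61, -0.48 and -0.66, and integrins at 0.33, -0.45 and -0.55. In the fit the laminin median was -0.17, with values of -0.48 without replicate 1 and 0.02 without replicate 3 of timepoint 2. The integrin median was -0.13, with values of -0.48 without replicate 1 and 0.04 without replicate 2. LAMB3, the beta chain of laminin-332, stood at 392, 449.7 and 194 CPM at timepoint 3, against 384, 784 and 388 CPM at timepoint 2, so replicate 1 held its level while replicates 2 and 3 were lower.

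Genes of the epithelial-mesenchymal list all had negative fold changes, 17 of 17 measured, with 7 lower in all 3 pairs and a median of -0.28. Pair medians were -0.04, -0.34 and -0.42, the median was -0.16 without replicate 3 of timepoint 3 and -0.14 without replicate 2 of timepoint 2, and up to 3 members were above 0 under other settings. The members included ACTA2, smooth muscle actin, at 7.55, 8.62 and 7.09 CPM at timepoint 3, against 13.6, 12.4 and 11.5 CPM at timepoint 2, and the intermediate filament VIM, at 1383, 1468 and 1253 CPM at timepoint 3, against 2117, 1862 and 1413 CPM at timepoint 2. ACTA2 did not overlap between groups (log2 fold change -0.68, SE 0.17, edgeR adjusted p = 0.182), and VIM did so through replicate 3 of timepoint 2 (-0.38, SE 0.14). The epithelial cadherin CDH1 and the placental cadherin CDH3 also belong to the list, at -0.32 (SE 0.21) and -0.24 (SE 0.16), so its members do not all mark mesenchymal cells.

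CLDN7, a claudin of epithelial tight junctions (chr17:7259903-7262478, hg38), had the smallest p of all genes. It stood at 37.0, 42.5 and 47.4 CPM at timepoint 3, against 65.7, 68.6 and 73.0 CPM at timepoint 2, and at 84.3, 86.9 and 113 CPM at timepoint 1. The timepoint 3 libraries lay below all others in 3D. The log2 fold change was -0.71 (SE 0.10), with an adjusted p of 0.0551 from edgeR, 1.17e-08 from DESeq2 and 0.482 without the replicate block, and 9 of 24 other settings called it. Its span overlaps ELP5 on the other strand and an unnamed gene on its own strand, and the strand used in counting is not stated. The late fold change of CLDN7 was -0.16 in 2D, but the difference between the cultures did not pass (edgeR adjusted p = 0.594), and the 2D pairs differed by -1.53 with the left-out library and by -0.23 and -0.03 in replicates 2 and 3. The junction list that includes CLDN7 had no common direction, with 14 of 28 members below 0, 7 lower in all 3 pairs, 8 higher in all 3 and a median of -0.01. LLGL2, a basolateral polarity protein, was lower, at 22.2, 39.1 and 38.5 CPM at timepoint 3, against 42.0, 56.0 and 58.4 CPM at timepoint 2 (log2 fold change -0.67, SE 0.15, edgeR adjusted p = 0.147). CLDN1 was at -0.08 (SE 0.15).

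The simple-epithelium keratins KRT7 and KRT8 were lower in value at timepoint 3, and the basal keratins showed no common direction. KRT7 stood at 1918, 1850 and 1801 CPM at timepoint 3, against 3761, 2746 and 2164 CPM at timepoint 2, without overlap (log2 fold change -0.62, SE 0.15, edgeR adjusted p = 0.167). KRT8, which pairs with KRT18 in luminal cells, stood at 237, 303 and 276 CPM at timepoint 3, against 481, 418 and 375 CPM at timepoint 2. For both genes replicate 1 had the widest gap, and KRT18 was at -0.24 (SE 0.18). Both KRT8 and KRT18 belong to the list of luminal hormone-sensing markers, of which 5 of 6 were tested and which summed to 469 to 623 CPM at timepoint 3 and 713 to 829 CPM at timepoint 2. KRT5 had a log2 fold change of 0.00 (SE 0.18) and KRT14 of 0.26 (SE 0.24), while KRT17, a keratin of basal and stressed epithelium, was at -0.82 (SE 0.24, edgeR adjusted p = 0.262, DESeq2 0.0481). ELF3, an epithelial transcription factor, was at 0.251, 0.699 and 1.45 CPM at timepoint 3, against 0.724, 1.64 and 2.10 CPM at timepoint 2.

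**Figure D2:**
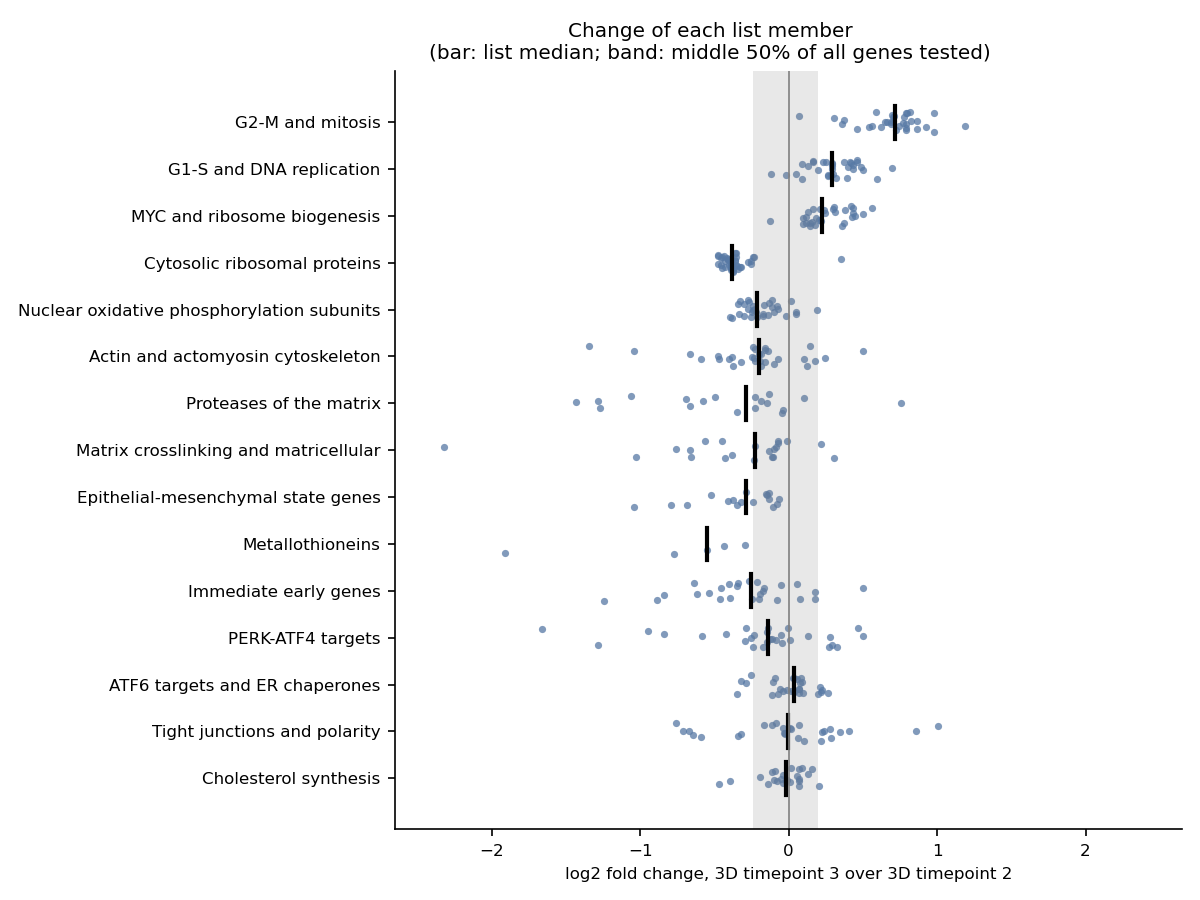
Log2 fold change, 3D timepoint 3 over 3D timepoint 2, of each measured member (points) of 15 gene lists, with the list median as a black bar and the middle 50% of all genes tested as a grey band. The G2-M list sits to the right of the band at a median of 0.72, ribosomal proteins form a narrow cluster to the left at -0.38 with RPL7 apart at 0.35, and the ER chaperone, junction and cholesterol lists are centred near 0.

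**Figure D3:**
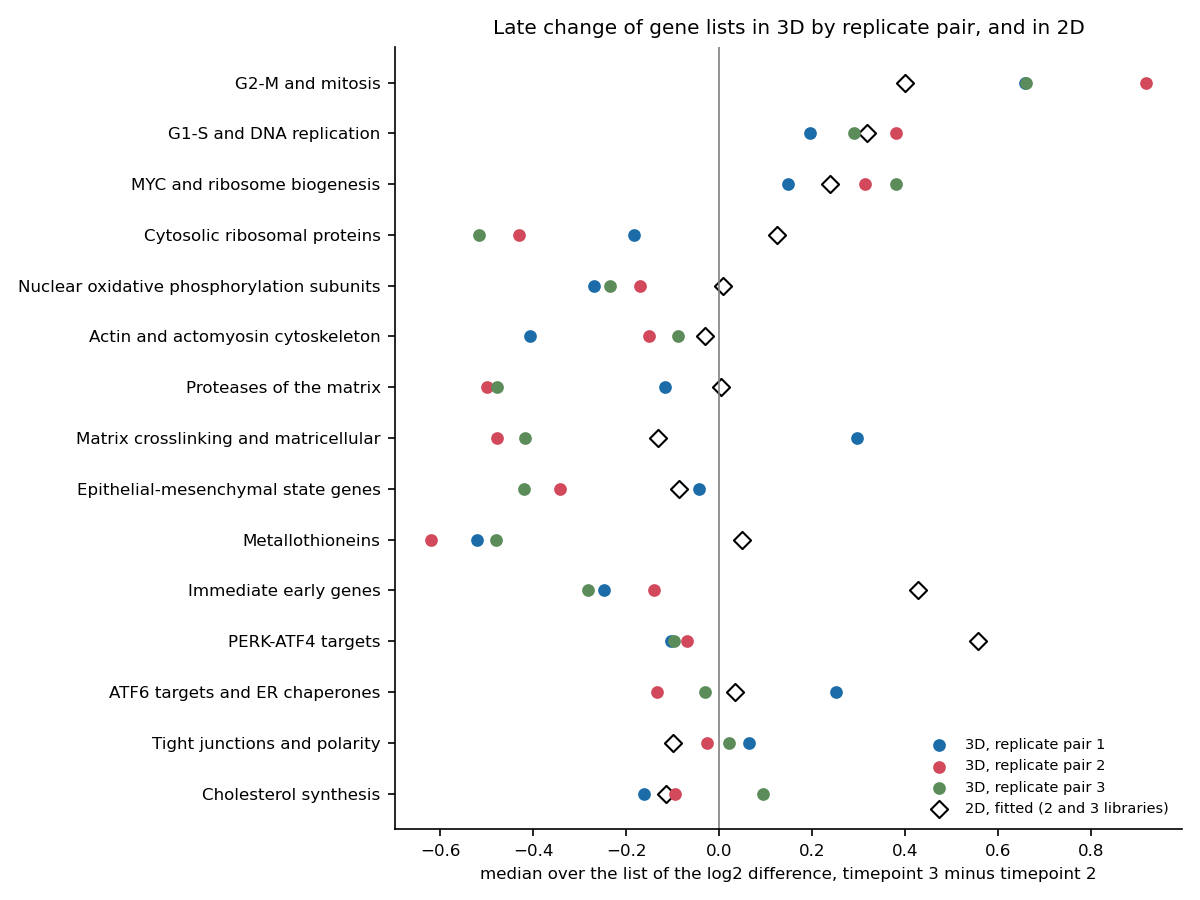
Median over each list of the log2 difference between timepoint 3 and timepoint 2 in each replicate pair of 3D culture (coloured points) and in the fit of 2D culture (open diamonds, 2 libraries at timepoint 3 and 3 at timepoint 2). The 3 pairs lie on 1 side of 0 for the G2-M, ribosomal protein and actin lists, pair 1 lies apart from pairs 2 and 3 for matrix crosslinking genes, and 2D lies far to the right of 3D for immediate early genes and PERK-ATF4 targets.

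PERK-ATF4 targets and immediate early genes were mostly lower in value at timepoint 3 in 3D and mostly higher in the 2D libraries kept in the fit. Some other lists of stress genes did not show this in 3D. Above 0 there were 10 of 17 heat shock genes, 14 of 24 p53 targets and 12 of 25 NRF2 and glutathione genes. Others leaned the same way by count, less evenly. Interferon response and MHC class I genes had 21 of 30 below 0 in 3D (50.7% of all genes) and 19 of 30 above 0 in 2D (48.1%). Their 3D pair medians were -0.11, -0.11 and 0.08, and the 2D pair of the left-out library gave -0.23. Inflammatory cytokines and chemokines had 18 of 26 below 0 in 3D (50.7% of all genes) and 15 of 26 above 0 in 2D (48.1%). Their 3D pair medians were -0.29, -0.24 and 0.04. All 5 measured metallothioneins were below 0 in 3D (50.7% of all genes), and 3 were above 0 in 2D (48.1%). The PERK-ATF4 arm slows translation and raises amino acid supply under stress. Among its 29 measured targets 21 were below 0 in 3D (50.7% of all genes), at a median of -0.14. Of the 29, 12 were lower in all 3 pairs (20.4% of all genes). With the offset for length and GC the 3D median was -0.04. In 2D, 26 of 29 were above 0, at a median of 0.56. The difference between the cultures was negative for 26 of 29 (50.5% of all genes), and 17 had an unadjusted p under 0.05 (3.67% of all genes). No member passed edgeR's adjusted threshold for that difference. DESeq2 called 10 with the lower change in 3D, against 33 of all 18592 genes. The 2D values rest on replicates 2 and 3, with pair medians of 0.54 and 0.59. The 2D library left out of the fits gave -0.22, and with all 18 libraries 3 members had an unadjusted p under 0.05 (2.26% of all genes).

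ATF3, a stress-induced transcription factor, stood at 3.72, 3.58 and 3.27 CPM at 3D timepoint 3, against 4.41, 7.91 and 7.22 CPM at 3D timepoint 2. It stood at 80.2 and 71.6 CPM in the 2 fitted libraries of 2D timepoint 3, against 21.3, 27.4 and 29.5 CPM at 2D timepoint 2. Neither culture's groups overlapped, in opposite directions, and the 2D pair of the left-out library differed by -2.84 on the log2 scale. DDIT3, which encodes CHOP, was at 8.85, 7.74 and 9.59 CPM at 3D timepoint 3, against 9.52, 9.91 and 12.4 CPM at 3D timepoint 2 (log2 fold change -0.28, SE 0.16), and its 2D fold change was 1.15. The 2D pair of the left-out library went the other way for DDIT3 too, at -0.86. For both genes the difference between the cultures had an edgeR adjusted p of 0.161. ATF4 itself was at -0.04 (SE 0.19) in 3D. HSPA5, the ER chaperone BiP, was at 0.05 (SE 0.19) and XBP1 at 0.07 (SE 0.11), and the ATF6 and ER chaperone list had a median of 0.04 over 28 genes.

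Immediate early genes, transcribed within minutes of growth factor or stress signals, were below 0 for 21 of 26 members in 3D (median -0.25) and above 0 for 22 of 26 in 2D (median 0.43). Their difference was negative for 24 of 26 (50.5% of all genes), with 13 at an unadjusted p under 0.05 (3.67% of all genes). When all 18 libraries were used it was negative for 22, with 2 at that p (2.26% of all genes). The pair median of the left-out 2D library was -0.57, against 0.53 and 0.43 in the other 2D pairs. FOS stood at 16.3, 27.1 and 21.7 CPM at 3D timepoint 3, against 32.3, 39.7 and 27.9 CPM at 3D timepoint 2, and at 64.2, 106 and 84.1 CPM at 3D timepoint 1. The highest library of timepoint 3 lay just under the lowest of timepoint 2 (log2 fold change -0.64, SE 0.12, edgeR adjusted p = 0.0837). FOS was at 0.43 in 2D, where the left-out library's pair again went the other way, at -1.07, and the difference between cultures had an edgeR adjusted p of 0.161.

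All 5 measured metallothioneins, small proteins that bind zinc and copper, were lower in all 3 pairs, with a median of -0.55 in 3D and 0.05 in 2D. The 3D median was -0.38 with the offset for length and GC. MT2A stood at 5715, 6194 and 4820 CPM at timepoint 3, against 7744, 8485 and 6429 CPM at timepoint 2 (log2 fold change -0.44, SE 0.25, edgeR adjusted p = 0.547). These genes are near-identical, and reads may be shared among them.

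Below an adjusted p of 0.1 there were 31 genes, 24 lower and 7 higher, a set taken after the values were seen. Only some of the 24 lower genes are named in the text. Every timepoint 3 library lay below every timepoint 2 library for 18 of the 24 (6.34% of all genes), and above for 6 of the 7 (4.16%), which describes genes chosen by p in the same libraries and adds no support. Of the 31, 29 had the same sign in 2D. ANGPTL4, a secreted inhibitor of lipoprotein lipase, stood at 241, 196 and 118.5 CPM at timepoint 3, against 481, 542 and 292 CPM at timepoint 2 and 617, 1082 and 749.5 CPM at timepoint 1 (log2 fold change -1.25, SE 0.22, edgeR adjusted p = 0.0837). Each pair was lower at each later time. CCDC33, with MYL9 and CLDN7 among the calls of limma-voom, was at 1.70, 1.90 and 0.752 CPM at timepoint 3, against 4.29, 4.98 and 2.61 CPM at timepoint 2, and overlaps STRA6 on the other strand. LSP1, an actin-binding protein first described in lymphocytes, was at 5.40, 5.24 and 5.27 CPM at timepoint 3, against 11.8, 11.1 and 8.29 CPM at timepoint 2 (log2 fold change -0.96, SE 0.15, edgeR adjusted p = 0.0713). TNS1, tensin 1, which ties integrins to actin, had a log2 fold change of -0.96 (SE 0.16, edgeR adjusted p = 0.0713). Of the 31 genes, 10 overlap another tested gene.

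The 7 higher genes were PCDH15, GOLGA2P10, HNRNPH1, NRF1, BIRC5, TUBB4B and HAUS8. PCDH15, a protocadherin, had the largest log2 fold change, 3.57 (SE 0.64), at 0.348, 1.70 and 0.613 CPM at timepoint 3, against 0.107, 0.0781 and 0 CPM at timepoint 2. The pseudogene GOLGA2P10 was at 2.41 (SE 0.44), with under 1 CPM in each of the 6 libraries. HNRNPH1, a splicing factor, stood at 1061, 923 and 1221 CPM at timepoint 3, against 695, 554 and 611 CPM at timepoint 2 (log2 fold change 0.78, SE 0.13, edgeR adjusted p = 0.0713). With the offset for length and GC its log2 fold change was 0.56 (edgeR adjusted p = 0.195). Timepoint 2 was the lowest of the 3 times for this gene, since timepoint 1 had 1012 to 1383 CPM. NRF1, a transcription factor of nuclear-encoded mitochondrial genes, was at 15.0, 12.6 and 16.9 CPM at timepoint 3, against 9.76, 8.63 and 9.89 CPM at timepoint 2 (log2 fold change 0.65, SE 0.10, edgeR adjusted p = 0.0713), and its groups did not overlap. TUBB4B, a beta tubulin, stood at 343, 342 and 524 CPM at timepoint 3, against 279.5, 209.6 and 321 CPM at timepoint 2, and HAUS8, a subunit of the augmin complex that seeds spindle microtubules, had a log2 fold change of 0.60 (SE 0.12, edgeR adjusted p = 0.0933).

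**Figure D4:**
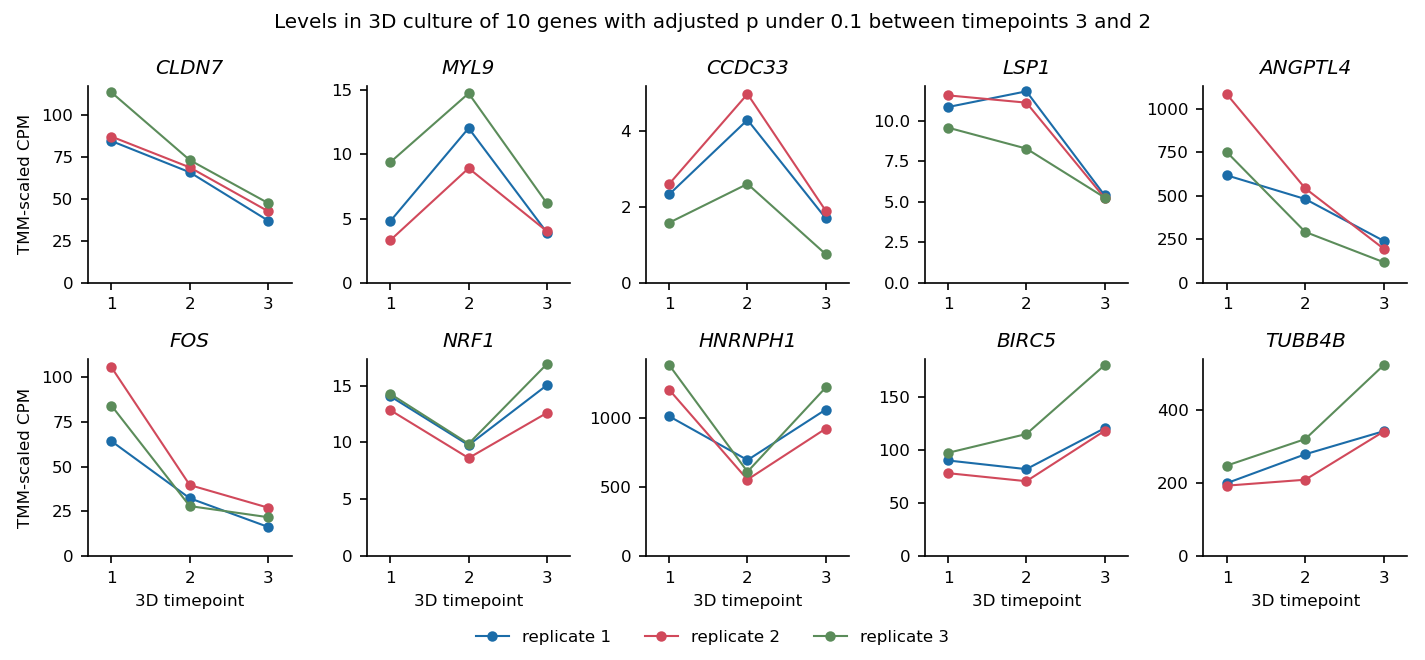
TMM-scaled CPM of 10 genes with an adjusted p under 0.1 at the 3 timepoints of 3D culture, with a line for each replicate number. CLDN7, ANGPTL4 and FOS step down at both intervals, MYL9 and CCDC33 are highest at timepoint 2, NRF1 and HNRNPH1 are lowest at timepoint 2, and all lines of BIRC5 and TUBB4B go up between timepoints 2 and 3.

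Lists that showed no common direction included cholesterol synthesis (24 genes, median -0.02, with HMGCS1, an early enzyme of the pathway, at -0.05), YAP-TAZ targets (23 genes, -0.03), p53 targets (24 genes, 0.04) and desmosomes (10 genes, 0.03). CCN2, a YAP target, was at 2.52, 0.998 and 0.752 CPM at timepoint 3, against 3.10, 2.52 and 1.04 CPM at timepoint 2, and CCN1 had a log2 fold change of -0.13 (SE 0.25). Glycolysis and hypoxia genes had a median of -0.08, with 18 of 30 below 0 and 11 lower in all 3 pairs (20.4% of all genes). Of the 30, 8 were lower at an unadjusted p under 0.05 (5.75% of all genes) and 2 higher (4.57%). Groups did not overlap for 7 lower members (6.34% of all genes) and 1 higher member (4.16%). BNIP3, a mitophagy receptor and 1 of those lower in all 3 pairs, was at 15.8 to 20.3 CPM at timepoint 3 and 22.2 to 27.6 CPM at timepoint 2. In bulk RNA, fewer cells with a transcript and less transcript per cell cannot be told apart, for these values and all others given here.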

How the data were processed

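RNA from 18 libraries was analysed, and 17 entered the fits. Replicate 1 of 2D timepoint 3 was not fitted, as the labels link it to the raw count table and to no other. Per the labels, the deposited gene counts and the authors' log2 CPM values come from 50 bp single-end reads of poly-A RNA. STAR 2.7.1a, HOMER, edgeR, limma and hg38 are named, without role, per the submitters' processing notes. The sources used here do not give annotation release or strand. The gene counts as deposited exceed the library totals in the file headers, so CPM values are not comparable between genes.

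From those counts, 18592 of 60662 genes passed edgeR's filterByExpr, were scaled by TMM and were tested in R 4.3.3 with edgeR 4.0.16 (quasi-likelihood F test, group plus replicate number, 17 libraries, 9 residual degrees of freedom) with Benjamini-Hochberg adjustment over all genes tested and a threshold of 0.05. An SE is the log2 fold change divided by the square root of F. DESeq2 1.42.0 and limma 3.58.1 were alternatives, with other scalings, filters, library sets, offsets, the unblocked fit and each replicate left out. Pair differences are of log2 CPM with a prior count of 2. A second count of calls, on counts divided by the number of GENCODE 29 transcripts per gene, was chosen after seeing the data. The procedure was tested on simulated data.

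The replicate numbers pair the libraries: descriptions give each number 1 date shared by all groups. Deviations from the group means correlated at 0.548, 0.807 and 0.558 for same-numbered libraries of timepoints 3 and 2 over 11565 genes, against -0.672 to 0.214 for the others. Such deviations cancel out within a group, so positive values for same-numbered libraries push the others negative, and that contrast is partly arithmetic. Count sums were 64.0 M to 77.8 M at timepoint 3 and 60.4 M to 93.9 M at timepoint 2, more than 5 times the header totals, so they do not measure the number of independent reads. Library pairs of 1 group differed by more than counting noise.

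The members, gene lists and tests were chosen with earlier results of these data known. The rule for named genes took up to 14 called genes per direction, up to 4 called members of each list or, where none was called, the 2 with the smallest p as values, and 18 genes always given, some of which are not reported here. Other genes were named after their values were seen. Promoter windows ran from 250 bases before to 50 after each RefSeq start.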

Additional observations from a re-analysis of the deposited data

How the results depend on the processing

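The count of 0 genes called in 3D timepoint 3 against timepoint 2 held with RLE or upper-quartile scaling, without the replicate block (smallest adjusted p 0.479; 951 genes at an unadjusted p under 0.05), with the 9 libraries of 3D, with all 18 libraries and against a fold of at least 1.5. It was 3 with limma-voom, 257 with DESeq2, 54 with no filter, 1 with the stricter filter, 67 with the 6 libraries alone, 11 with counts divided by their sum over the header total, 27 with an offset for length and GC and the replicate block, 12 with the deposited log2 CPM values, 2 with counts divided by transcripts, and 0 to 1 with 1 replicate left out, the 1 call coming without replicate 2 of 3D timepoint 2. The difference between the 3D and 2D changes gave 41 calls with DESeq2 and 6 with no filter. The cause was not tested. Of 3151 values of 133 named genes over 24 settings, 38 reversed, in 11 genes. Of 1199 list medians, 68 moved by at least the standard deviation of their list's 3 pair medians. Lists whose pairs disagreed had a wide margin, so that count does not show steady medians. With limma-voom ITGAM was 0.04 and KRT5 -0.01. With that offset XBP1 was -0.03, HSPA5 -0.02 and ATF4 0.06. KRT5 was 0.00 with DESeq2 and RLE scaling, -0.03 with upper-quartile scaling, and -0.01 with no filter, all 18 libraries or counts divided by transcripts. With replicates left out, log2 fold changes spanned 0 in these 11 genes, at -0.49 to 0.05 for MT-CO2, -0.07 to 2.26 for CDH5, -4.07 to 3.09 for ITGAM, -0.02 to 0.22 for XBP1, -0.28 to 0.06 for CCN1, -0.07 to 0.27 for CKS2, -0.19 to 0.05 for CLDN1, -0.16 to 0.20 for HSPA5, -0.22 to 0.21 for HMGCS1, -0.15 to 0.08 for ATF4 and -0.13 to 0.22 for KRT5. Header totals were 10.5 M to 16.9 M reads per 3D library with 3 replicates per group, and how far either limits the calls was not tested.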

Other observations

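The 6 genes that follow were chosen after their values were seen, and nothing about their functional groups was tested. KPNA2, an importin that carries cargo into the nucleus, stood at 201.5, 170.1 and 263 CPM at timepoint 3, against 149.7, 94.8 and 153 CPM at timepoint 2, without overlap (log2 fold change 0.68, SE 0.17, edgeR adjusted p = 0.167, DESeq2 0.0141). KPNB1, its partner importin beta, was at 0.45 (SE 0.12), and RANGAP1, which activates the Ran GTPase at the nuclear pore, at 0.37 (SE 0.09), also without overlap. TUBB, a beta tubulin, stood at 926, 894.5 and 1322 CPM at timepoint 3, against 749, 558 and 862 CPM at timepoint 2 (log2 fold change 0.54, SE 0.14, edgeR adjusted p = 0.183). The splicing factors SRSF4 and SRSF2 were at 0.50 (SE 0.10, edgeR adjusted p = 0.109) and 0.49 (SE 0.11, edgeR adjusted p = 0.147). In 2D the fold changes were 0.54 for KPNA2, 0.24 for KPNB1, 0.52 for RANGAP1, 0.52 for TUBB, 0.39 for SRSF4 and 0.43 for SRSF2.

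Among other lists, cytosolic aminoacyl-tRNA synthetases, which charge transfer RNAs, had 16 of 20 members above 0 at a median of 0.14, with pair medians of -0.13, 0.23 and 0.33 and values of 0.05 to 0.29 when replicates were left out. Fatty acid synthesis had 8 of 11 above 0 at 0.16, with values of 0.04 to 0.24. The inflammatory cytokines and chemokines had 18 of 26 below 0 at a median of -0.28, which lay between -0.32 and -0.07 with replicates left out, with -0.07 reached without replicate 1 of 3D timepoint 2. Apoptosis regulators had 13 of 18 below 0 at -0.18 (-0.22 to -0.10 with replicates left out), and squamous differentiation genes 18 of 27 at -0.21 (-0.34 to -0.10). The squamous list had pair medians of -0.44, 0.0 and -0.29, and its median was -0.06 with the offset for length and GC. No member of these 5 lists passed edgeR's adjusted threshold. HSPB1, a small heat shock protein that binds actin filaments, stood at 194, 275 and 227 CPM at timepoint 3, against 417, 437 and 388 CPM at timepoint 2, without overlap (log2 fold change -0.84, SE 0.23, edgeR adjusted p = 0.213, DESeq2 0.0328).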
